A study of Homo sapiens with 16 samples.

Results

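Actin cytoskeleton genes were examined for the places of RNA polymerase II (Pol II) and of topoisomerase II alpha (TOP2A) before and after merbarone, a drug that blocks the catalytic cycle of topoisomerase II. The 8 genes, ACTB, ACTG1, VCL, MYH9, TPM1, TAGLN, FLNA and MYL9, were set by name and by their hg19 spans, each taken with 2 kb before its start and 5 kb past its end. Such a stretch is called a window here. All 8 windows held Pol II peaks, and each gene lay in a separate Pol II domain, among 5305 domains of at least 5 kb in the whole set. A domain is a stretch in which peaks of the 3 Pol II lists follow each other with gaps of at most 5 kb.

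The cells were hTERT RPE-1, a wild-type human retinal pigment epithelial line immortalised with telomerase, and every library came from cells starved in 0.1% serum for 48 h. Pol II was immunoprecipitated with an antibody to RPB1, its largest subunit, in 3 vehicle (DMSO, 30 min) and 3 untreated libraries, in 3 libraries after 30 min of merbarone at 200 uM and in 2 libraries after 60 min at the same dose. TOP2A was immunoprecipitated in 2 untreated libraries, and 3 IgG libraries were not analysed here. The values were 4 peak lists: 1 Pol II list for the vehicle and untreated libraries together (control), 1 for each merbarone time and 1 for TOP2A.

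Actin filaments are built from the cytoplasmic actins beta and gamma, are cross-linked and anchored by proteins such as filamin and vinculin, and are pulled by nonmuscle myosin II. Many genes of this machinery are targets of serum response factor (SRF), which binds a DNA element called the CArG box and, with coactivators of the MRTF family that are held back by monomeric actin, answers to serum. Transcription twists the DNA ahead of and behind Pol II, and topoisomerases remove this twist.

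The promoter sequences below show where a CArG box stood before RefSeq starts of these genes, which may differ from the starts of the hg19 spans. Promoters of RefSeq (GRCh38.p14) were matched by symbol for 5 of the 8 genes, ACTG1, VCL, MYH9, TPM1 and FLNA. ACTB, TAGLN and MYL9 were not matched. The 250 bases before the start were searched on both strands, and the CArG box was found in 2 of these 5, against 1.16% of 35116 promoters of the same length. It stood from 94 to 85 bases before the start in ACTG1 and at the same distance in FLNA. Capitals mark the CArG box, and each sequence runs 5′ to 3′ on the minus strand, ACTG1 from chr17:81512800-81513049 and FLNA from chrX:154374635-154374884 of GRCh38.p14.
ACTG1: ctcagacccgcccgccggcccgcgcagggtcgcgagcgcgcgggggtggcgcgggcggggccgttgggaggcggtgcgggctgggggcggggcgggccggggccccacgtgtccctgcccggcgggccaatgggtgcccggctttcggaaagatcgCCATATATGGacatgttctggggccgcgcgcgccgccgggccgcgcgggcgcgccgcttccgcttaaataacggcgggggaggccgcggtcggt
FLNA: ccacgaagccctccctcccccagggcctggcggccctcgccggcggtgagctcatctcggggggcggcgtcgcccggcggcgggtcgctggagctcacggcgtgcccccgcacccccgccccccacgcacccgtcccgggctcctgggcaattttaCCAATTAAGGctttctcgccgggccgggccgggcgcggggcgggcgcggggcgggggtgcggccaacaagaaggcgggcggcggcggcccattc

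The letters CCAAT, found in 32.0% of all these promoters, were in 4 of the 5 promoters, all but TPM1. The letters GGGCGG, in 42.6% of all promoters, were in each of the 5, and TATAAA, in 10.7%, was in none. The motif CCAAT did not overlap the CArG box of ACTG1, where it stood apart, and it shared bases with that of FLNA. The table's gene spans differ from the hg19 spans in length for all but ACTB, so its starts may not be the same bases. TPM1 has several starts, and which of them its promoter belongs to was not tested. A match describes the letters only, and binding of SRF was not measured.

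The peak lists carried no height or score, so Pol II was measured as cover, the percentage of bases under a peak. All libraries of a condition shared 1 list, so no value has a spread between replicates and no test between conditions was possible. A change of at least 10 percentage points was called. The whole Pol II lists covered 42.8 Mb (control), 47.7 Mb (30 min, 1.11 times control) and 58.3 Mb (1 h, 1.36 times). Read depth was unknown. A list made from more reads and a list of more bound sites cannot be told apart, and no vehicle library matched the 1 h time.

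Before the drug these genes were among the most fully covered Pol II domains. Cover of the window in control was highest at TPM1 (91.2%), then MYH9 (88.7%), ACTB (85.6%), FLNA (83.5%), ACTG1 (80.1%), MYL9 (69.4%), TAGLN (64.9%) and VCL (51.5%). With no spread between replicates, it cannot be said which neighbours in this order differ. Pol II covered the whole first 1 kb of all 8 genes. Within the gene span the median cover was 97.4%. The 8 domains had a median control cover of 80.6%, against 25.7% among 5233 domains with peaks in control and at 30 min, and stood between the percentiles 83.2 (VCL) and 99.8 (ACTB) of control cover.

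**Figure D1:**
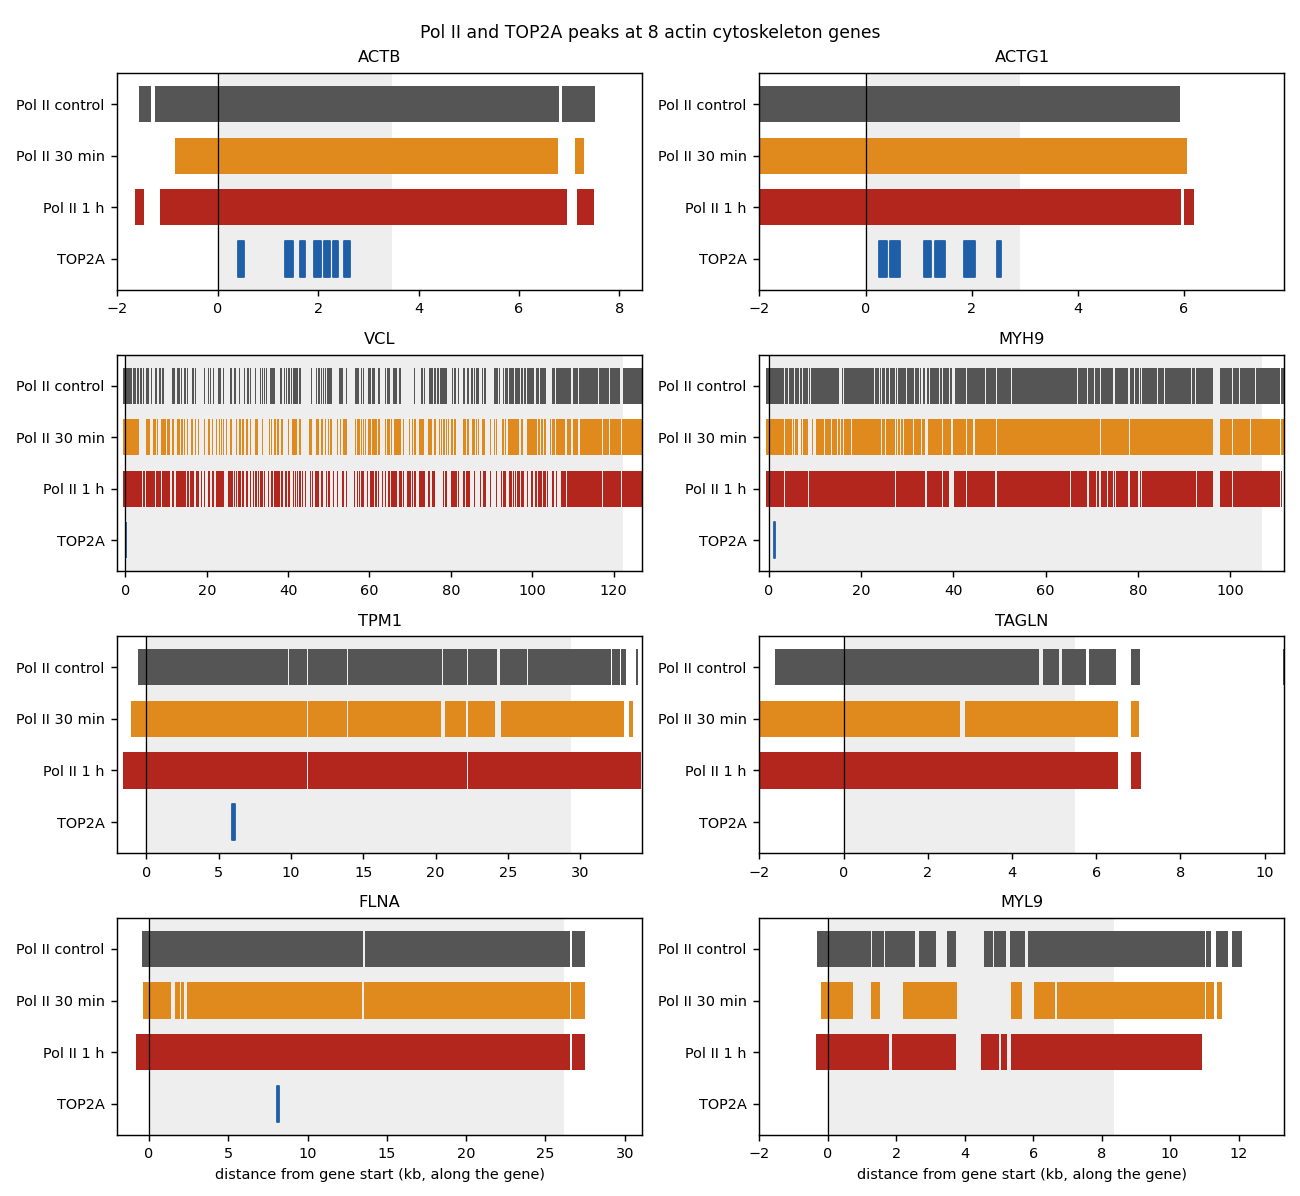
Pol II peaks (control, 30 min and 1 h of merbarone) and TOP2A peaks (untreated) at the 8 genes, by distance from the gene start in kb along the gene; the gray band is the gene span and bars are peaks, clipped to the window. ACTB and ACTG1 were covered from start to end in every Pol II list and held 13 of the 17 TOP2A peaks, while Pol II at VCL was broken into 182 peaks in control.

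Over the window, no gene was covered more by the called size at either time, and ACTB and MYL9 were covered less at 30 min. The median change over the 8 windows was 0.44 points at 30 min and 2.16 points at 1 h. The covered length summed over the 8 windows was 1.01 times control at 30 min and 1.07 times at 1 h, both below the ratios of the whole lists. Windows with high cover had little room to gain, which bears on the counts below.

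ACTB encodes beta-actin, 1 of the 2 cytoplasmic actins, and lies at chr7:5566779-5570232 on the minus strand. Its window had a cover of 85.6% in control, 74.8% after 30 min and 82.4% after 1 h. The gene span itself was covered over 100% in all 3 lists, so the lower cover lay outside it. In the 2 kb before the start cover was 74.1%, 42.7% and 65.2%, and in the 5 kb past the end it was 80.3%, 70.2% and 77.1%. The peak over the start began 1258 bp (control), 854 bp (30 min) and 1141 bp (1 h) before it. That 1 peak ran on past the gene end by 3347, 3325 and 3499 bp. LOC221946 lies within 5 kb past ACTB in the GRCh38 table, so Pol II there cannot be assigned to ACTB alone.

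ACTG1 encodes gamma-actin, the other cytoplasmic actin, and lies at chr17:79476997-79479892 on the minus strand. Its span and the 2 kb before its start were covered over 100% in the 3 lists. The 5 kb past the end had 60.6% cover in control, 63.3% after 30 min and 64.9% after 1 h. The 2 actin genes thus shared full cover of the span. Over the window at 30 min they differed by value, with 10.8 points less than control at ACTB and 1.34 points more at ACTG1. The 2 kb before the ACTG1 start was full in each list, so a change there could not show in its window. The peak over the ACTG1 start began 3799 bp (control), 3015 bp (30 min) and 7952 bp (1 h) before it. With like limits, defined below, these were 4849, 7989 and 7952 bp, so the direction at 30 min turned with the limits. ACTB and ACTG1 resemble each other in their coding exons and have processed copies elsewhere in the genome. No source used here says how reads with several matches were placed, and values at both genes are uncertain to that extent.

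MYH9 encodes the heavy chain of nonmuscle myosin IIA, and MYL9 a regulatory light chain of myosin II. MYH9 lies at chr22:36677323-36784063 on the minus strand, and its window had a cover of 88.7% (control), 88.9% (30 min) and 90.9% (1 h). The total hid a shift along the gene. In the first 10 kb cover was 88.0% in control, 74.6% at 30 min and 94.6% at 1 h, and from 10 to 20 kb it was 89.4%, 83.8% and 100%. From 20 to 30 kb it was 90.5%, 85.2% and 96.3%. From 30 to 40 kb both drug lists were higher, with 73.9%, 81.0% and 83.6%. With like limits, defined below, the gains in that step were 11.8 and 13.4 points, above the called size. From 40 to 100 kb the 10 kb steps differed from control by at most 6.19 points at either time. In the 5 kb past the end cover was 96.0%, 97.4% and 87.6%. MYH9-DT lies within 2 kb before MYH9 in the GRCh38 table, so Pol II around the start may belong in part to it.

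MYH9 was covered by fewer and longer peaks with the drug. Its peaks numbered 92 in control, 67 after 30 min and 41 after 1 h, and the widest spanned 4892, 16269 and 18582 bp. The 3 Pol II lists differed in their finest detail, with narrowest peaks of 136 bp (control), 150 bp (30 min) and 159 bp (1 h). To give them like limits, neighbours separated by at most 37 bp were fused in each Pol II list and anything narrower than 159 bp was dropped. MYH9 then had 59, 51 and 41 peaks, the widest of 8006, 17422 and 18582 bp. Fewer and wider peaks were also a trend of the whole Pol II lists as deposited. These held 87911 (control), 85990 (30 min) and 81816 peaks (1 h), with median widths of 242, 277 and 347 bp.

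MYL9 lies at chr20:35169887-35178226 on the plus strand, and of the 8 windows its cover was lowest against control at 30 min. Cover of the window was 69.4% in control, 54.6% after 30 min and 66.9% after 1 h. In the first 1 kb cover was 100%, 73.5% and 100%, and over the rest of the span it was 79.4%, 59.4% and 86.4%. The widest stretch of bases lost at 30 min ran from 1680 to 2208 bp after the start. The span thus had more cover at 1 h than in control, while the 5 kb past the end went the other way, with 69.7% in control, 61.3% after 30 min and 51.7% after 1 h. The long noncoding gene DLGAP4-AS1 overlaps MYL9 in the GRCh38 table, and peaks of the genes cannot be told apart.

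VCL encodes vinculin, which ties actin to adhesion sites. It lies at chr10:75757872-75879912 on the plus strand and is the longest of the 8 genes, at 122 kb. Cover of its window was 51.5% in control, 55.6% after 30 min and 61.0% after 1 h, the largest change among the 8 at 1 h, 9.50 points. With like limits the change at 1 h was 12.5 points, above the called size.

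The change along VCL at 1 h was largest in the first 30 kb of the gene. In the first 10 kb cover was 61.7% in control, 67.0% at 30 min and 91.7% at 1 h. From 10 to 20 kb it was 32.1%, 36.9% and 67.3%, from 20 to 30 kb 35.2%, 37.5% and 63.3%, and from 30 to 40 kb 36.3%, 35.6% and 56.0%. After 20 kb the surplus at 1 h narrowed, to 8.47 points from 40 to 50 kb and -1.92 points from 50 to 60 kb. From 60 to 70 kb both drug lists were higher, with 38.1% in control, 59.0% at 30 min and 59.9% at 1 h, and likewise from 80 to 90 kb, with 37.9%, 48.7% and 49.7%. Between these steps, from 70 to 80 kb, the 2 times parted, with 49.5%, 51.3% and 42.7%. With like limits the changes in that step were 9.44 points at 30 min and 0.52 points at 1 h. From 90 to 100 kb both were lower, with 71.7%, 61.3% and 46.2%. The 10 kb steps stopped there, short of the gene end. In smaller steps, cover from 97.6 to 103.7 kb was 74.0%, 74.0% and 56.7%, lower at 1 h alone. Farther on the 2 times parted again, with 71.3%, 77.3% and 60.2% from 103.7 to 109.8 kb. From 109.8 to 115.9 kb cover was 84.7%, 89.6% and 93.7%, and from there to the gene end 86.4%, 91.6% and 91.3%.

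The peak over the VCL start ran 1723 bp (control), 2731 bp (30 min) and 4084 bp (1 h) into the gene. VCL held 182 peaks in control, 160 at 30 min and 134 at 1 h, but 124, 134 and 134 with like limits, so the order of its peak counts depended on those limits. The gene AP3M1 overlaps the VCL span in the GRCh38 table, so part of the Pol II there may belong to it.

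**Figure D2:**
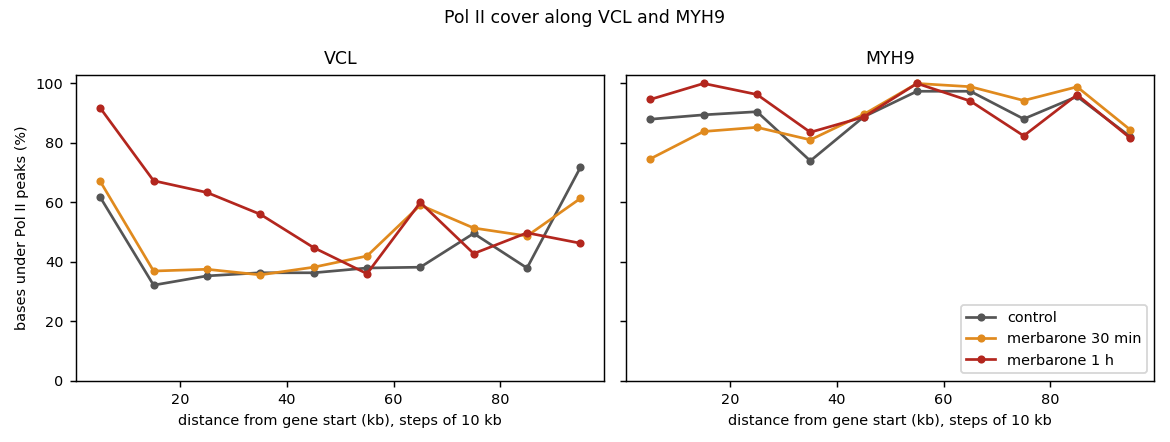
Percentage of bases under Pol II peaks in 10 kb steps from the gene start, for VCL and MYH9 in control, after 30 min and after 1 h of merbarone; each point is 1 step in 1 peak list. At VCL the 1 h line lies above control over the first 50 kb, and at MYH9 the 30 min line lies below control over the first 30 kb.

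FLNA encodes filamin A, which cross-links actin filaments, and lies at chrX:153576900-153603006 on the minus strand. Cover of its window was 83.5% in control, 82.4% after 30 min and 85.2% after 1 h. In the first 5221 bp of the span cover was 99.3% in control, 91.0% after 30 min and 100% after 1 h. The widest lost stretch at 30 min ran from 1395 to 1611 bp after the start. At 1 h a single peak of 27388 bp ran over the whole gene, where control had 4 peaks in the window, the widest of 12925 bp. With like limits control had 3, the widest of 13929 bp. The span was already covered over 99.4% in control, so the gaps closed were small. The peak over the start began 437 bp (control), 390 bp (30 min) and 820 bp (1 h) before it.

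TPM1 encodes tropomyosin alpha-1, which winds along actin filaments, and is transcribed from more than 1 start. It lies at chr15:63334838-63364111 on the plus strand. Cover of its window was 91.2% in control, 91.9% after 30 min and 98.1% after 1 h. The added bases lay mainly in the flanks. In the 2 kb before the start cover was 30.0%, 52.6% and 78.8%, and in the 5 kb past the end it was 78.7%, 81.5% and 97.8%. Its peaks numbered 14 in control, 12 after 30 min and 3 after 1 h, and with like limits 9, 9 and 3. The gene TPM1-AS overlaps TPM1 in the GRCh38 table, so part of the Pol II there may belong to it.

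TAGLN encodes transgelin (SM22 alpha), an actin-binding protein used as an early marker of smooth muscle and of SRF activity. It lies at chr11:117070040-117075508 on the plus strand. Cover of its window was 64.9% in control, 68.7% after 30 min and 70.2% after 1 h, and its span over 97.2%, 97.8% and 100%. Before the start cover went from 81.1% to 100% at both times. The peak over the start began 744 bp (control), 2396 bp (30 min) and 5110 bp (1 h) before it, and with like limits the control value was 1640 bp. SIDT2 lies within 2 kb before TAGLN in the GRCh38 table, and PCSK7 overlaps TAGLN, so this Pol II cannot be assigned to TAGLN alone.

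**Figure D3:**
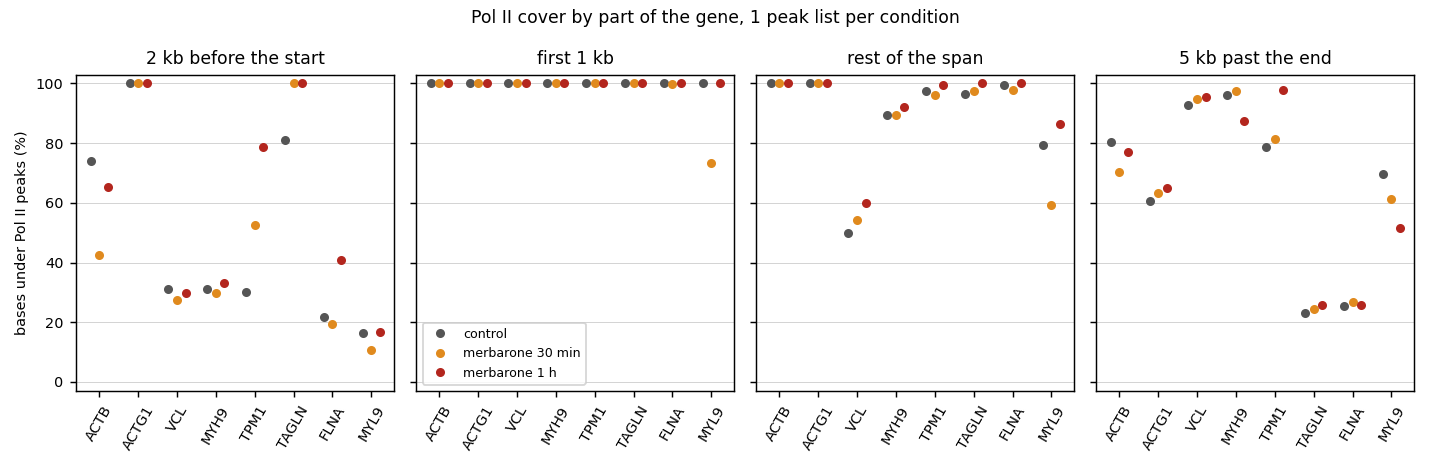
Percentage of bases under Pol II peaks in the 2 kb before the start, the first 1 kb, the rest of the span and the 5 kb past the end of the 8 genes; each point is 1 peak list, for control, 30 min and 1 h of merbarone. The first 1 kb was covered fully in control and at 1 h at all 8 genes, and MYL9 stood at 73.5% there at 30 min.

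The parts of the genes did not move together. The reach of the peak over the start into the gene, measured up to the gene end, was the same in the 3 lists at ACTB and ACTG1, where that peak ran past the end. Of the other 6 genes it was shorter at 30 min than in control at 5, all but VCL. With like limits it was shorter at 4, since MYH9 then went from 3368 to 3381 bp. Short gaps set some of these ends, so a shorter reach need not mean less cover. At TPM1 the 30 min peak ended at 9150 bp. Its next peak ran from 9188 to 11122 bp, past the control reach of 9819 bp. At FLNA the 30 min peak ended at 594 bp and the next began at 597 bp. The FLNA control reach was 1359 bp as deposited and 13492 bp with like limits. At 1 h it was longer than in control at all 6 with either limits, though by 20 bp at MYH9. Over the rest of the span 3 genes had more cover at 30 min and 3 less, and at 1 h 6 had more and none less. Past the gene end the median change was 1.41 points at 30 min and 1.64 points at 1 h, with a range at 1 h from -18.1 at MYL9 to 19.1 at TPM1. Within 10 kb past the end the medians were -1.03 and -0.85 points, so their sign turned with the stretch taken. These genes were not compared with other genes by part, since no hg19 annotation was used here.

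For comparison with the rest of the genome, each gene's domain was set beside all domains, with the lists at like limits. At 30 min none of the 8 domains was called higher, against 25.7% of all 5233 domains, and 2 were called lower, ACTB and MYL9, against 2.81% of all domains. The ACTB domain was lower by 12.3 points and that of MYL9 by 14.0 points, and only 1.68% and 1.18% of domains had a lower value. The median change was 0.477 points for the 8 domains and 4.71 points for all. At 1 h 3 were called higher, ACTG1 (11.9 points), VCL (11.7) and TAGLN (10.9), against 57.2% of all domains, and none was called lower, against 1.78%. The median change was 4.84 points, against 12.0 for all. The ACTG1 domain spans 76.4 kb, and the gene's own window changed by 2.16 points at 1 h, with its span covered fully in each list, so this gain lay mostly outside the window. The TAGLN window changed by 5.33 points.

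Domains that start with high cover have less to gain and more to lose. Among the 890 domains covered at least as much in control as the lowest of the 8, VCL at 49.2%, 16.4% were called higher at 30 min and 7.42% lower. At 1 h 42.8% were called higher and 3.93% lower. The median change in these 890 was 2.06 points at 30 min and 8.16 at 1 h, above the 0.477 and 4.84 of the 8 genes, whose median control cover was also higher, 80.6% against 61.8%. The 8 domains kept a median of 94.5% of their control-covered bases at 30 min and 96.1% at 1 h, against 90.0% and 93.8% in the 890 domains. At 30 min MYL9 (72.1%), VCL (77.6%) and ACTB (87.4%) lay below the median of the 890, and the other genes above it. At 1 h VCL (77.0%) and MYL9 (89.8%) lay below it, and the others above. Of bases free of peaks in control, a median of 24.4% was filled at 30 min and 42.5% at 1 h, against 27.2% and 41.8%. Among the 8 the filled share ranged from 0% at ACTB to 40.2% at MYH9 at 30 min, and at 1 h it was lowest at MYL9 and highest at TPM1 (95.0%).

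**Figure D4:**
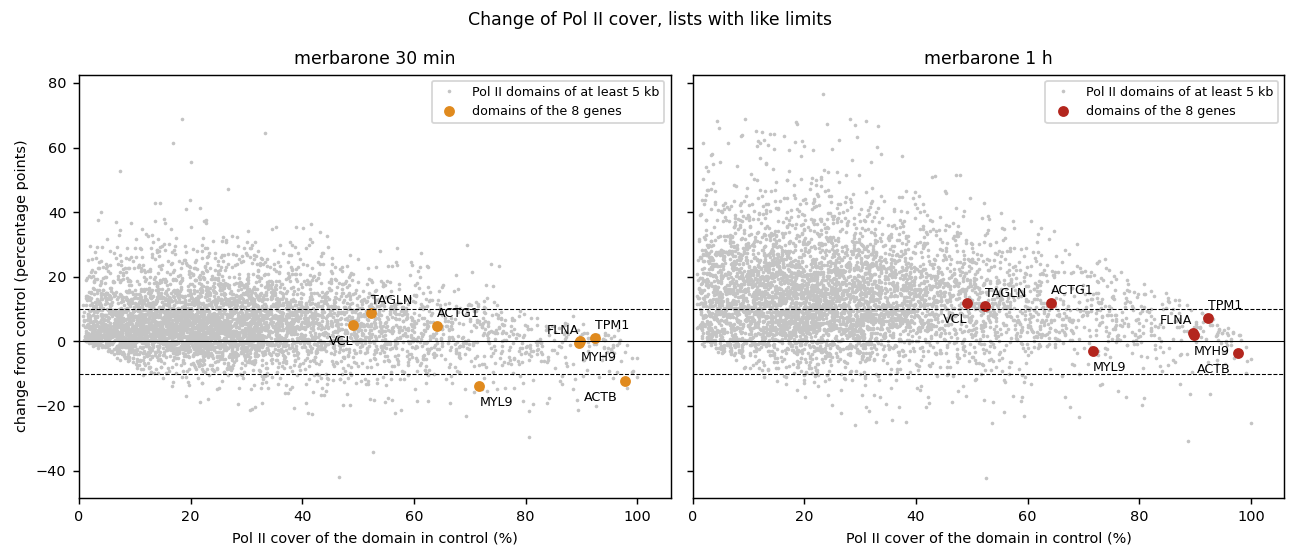
Change of Pol II cover from control (percentage points) against control cover (%) for 5203 domains of at least 5 kb with peaks in all 3 Pol II lists (gray points) and for the domains of the 8 genes (colored, named), after 30 min and 1 h of merbarone, with lists at like limits; dashed lines mark the called change of 10 points. ACTB and MYL9 lie below the lower line at 30 min, and ACTG1, VCL and TAGLN lie above the upper line at 1 h.

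Peaks that appeared or disappeared were mostly those of VCL, which also held most of the peaks. Its window had 160 of the 262 peaks at 30 min, 134 of 192 at 1 h and 182 of 316 in control. Of 262 peaks in the windows at 30 min, 31 (11.8%) overlapped no control peak, against 34.1% of the whole 30 min list, and 30 of the 31 lay in VCL. At 1 h 32 of 192 (16.7%) had no control partner, against 44.1% of the whole list, and again 30 lay in VCL. The widest of these at 1 h spanned 1454 bp, from 9588 to 11042 bp after the VCL start. Of 316 control peaks in the windows, 39 (12.3%) had no partner at 30 min, against 26.1% of all control peaks, and 39 had none at 1 h, against 22.3%. Control cover of the 8 windows had a median of 81.8%, which left a drug peak little room to miss a control peak. The low shares without a control partner were thus partly fixed in advance. Peaks of 1 gene are pieces of 1 Pol II tract and are not independent.

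TOP2A lay most densely on the 2 actin genes. Of 1840 TOP2A peaks in untreated cells, 17 lay in the 8 windows, 7 at ACTB, 6 at ACTG1 and 1 each at VCL, MYH9, TPM1 and FLNA. TAGLN and MYL9 had none. All 17 lay inside a gene span, and each lay wholly on a Pol II peak in control and in both merbarone lists. ACTB and ACTG1 held 13 of the 17, and their spans were covered over 100% in each Pol II list. For peaks inside those spans the overlap was thus fixed in advance. In the whole list 76.4% of TOP2A peaks overlapped a control Pol II peak by at least 1 bp, a looser measure.

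At ACTB the TOP2A peaks were 85 to 165 bp wide and ran from 404 to 2642 bp after the start (chr7:5567591-5569828), with gaps of 57 to 818 bp between them. At ACTG1 they were 73 to 196 bp wide and ran from 259 to 2547 bp after the start (chr17:79477346-79479633), with gaps of 59 to 450 bp. Both genes had about 2 TOP2A peaks per kb of span, 2.03 at ACTB and 2.07 at ACTG1, and within the windows none lay before the start or past the end, where Pol II cover went on.

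Joined within 1 kb of each other, the TOP2A peaks formed 1564 clusters, of which 1373 were single peaks. The ACTB cluster, with 7 peaks, held the most of any, and that of ACTG1, with 6, was among 5 clusters of that size. Clusters of at least 6 peaks were 0.384% of all. By domain, 6 of the 8 held TOP2A, against 9.76% of the 5305 domains, and those of ACTB and ACTG1 held 7 each (at ACTG1 1 lay outside the window, 39.3 kb before the gene start), where 0.151% of domains held at least 6. The domains of these genes were also long, with VCL, MYH9 and ACTG1 at the percentiles 99.5, 99.3 and 98.2 of width. Per kb of domain ACTB ranked 2 of 5305, and ACTG1, whose domain spans 76.4 kb, ranked 198.

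Measured from the start of the gene span, the single TOP2A peaks lay near it in VCL and MYH9 and farther in at TPM1 and FLNA. TPM1 has several starts, and whether its peak lay near another of them was not tested. The VCL peak ran from 145 to 220 bp after the start and the MYH9 peak from 1207 to 1297 bp, both inside the Pol II peak over the start in each list. The TPM1 peak, 189 bp wide, lay from 5917 to 6106 bp after the start, and the FLNA peak from 8099 to 8172 bp. The FLNA peak and 1 of the ACTG1 peaks had the smallest width in the list, 73 bp, as had 517 of the 1840. Both genes with a called loss of Pol II cover at 30 min were thus unlike in TOP2A, with 7 peaks at ACTB and none at MYL9. Whether the IgG libraries gave signal at these genes was not tested, and TOP2A was not mapped after merbarone.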

How the data were processed

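The 4 peak lists are the deposited values: peak positions on hg19, a start and an end for each peak, in bp, and no score (the fourth field is an asterisk in every line). Reads were aligned with Bowtie 1.2.0, peaks were called with MACS2 and deepTools 2.4.1 was used, per the submitters' processing notes. The sources used here do not give the MACS2 version, its threshold, its background or the way libraries were pooled.

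Positions were read as counted from 0 and are printed counted from 1. Cover is the percentage of bases of a stretch under peaks, in the sense of the gene's strand, and peaks are shared where they overlap by at least 1 bp. Windows used lists as deposited and domains used lists at like limits. All 8 genes are named. The genes, lists and rules were chosen with earlier results of these data known, and the start peaks, 10 kb steps, TOP2A clusters and domains of like control cover were added after seeing the data. Neighbouring genes came from the RefSeq table of GRCh38.p14 by order only, and the other pathway genes planned were not analysed here, since they need hg19 positions. The interval functions were tested on simulated intervals and against bedtools 2.31.1. Tools were Python 3.11.15, numpy 2.4.6, pandas 2.3.3 and matplotlib 3.10.9.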

Additional observations from a re-analysis of the deposited data

How the results depend on the processing

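No paired analysis was possible because each condition has 1 peak list for all its libraries, and for the same reason no replicate could be left out. Of 62 alternative values of the main counts and medians 43 stayed within 1.5 times for a count, or kept their sign and stayed within 5 points for a change, a tolerance wider than the medians themselves. The median change past the gene end, 1.41 points at 30 min and 1.64 at 1 h, turned to -0.64 and -0.01 with peaks within 1 kb joined and to -1.03 and -0.85 within 10 kb past the end; the cause was not tested. Genes whose start peak ran longer into the gene at 30 min numbered 1, and 2 with like limits. Windows covered less by the called size at 30 min numbered 2, and 1 with peaks within 1 kb joined or with the gene span alone (MYL9, since the ACTB span was covered fully), and 0 with a call at 20 points. Windows covered more at 1 h numbered 0, and 1 with like limits or with peaks of at least 300 bp (VCL), and 3 with a call at 5 points. Domains called higher at 30 min numbered 0, and 1 when joined across 1 kb or built from control alone. Those called lower at 30 min numbered 2, and 0 when joined across 10 kb. Those called higher at 1 h numbered 3, and 1 when joined across 1 kb. Peaks with no control partner numbered 31 at 30 min and 32 at 1 h, or 54 and 59 when 50% of the peak had to overlap, and 0 and 1 when peaks within 1 kb counted as shared. At MYL9 the change of the window at 1 h was -2.46 points, and 2.95 with peaks of at least 300 bp, 6.22 over the span alone and -7.60 with peaks within 1 kb joined. Depth and peak height were unknown, so a change within ground already covered could not be seen.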
